A study of Mus musculus with 12 samples.

Results

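The 10 genes described here act in cytosolic DNA sensing and nucleic acid clearance and were measured in 4 groups of B16 libraries, B16 being an established mouse melanoma cell line. They are the rows for cGAS (Mb21d1), STING (Tmem173), 3 AIM2-like genes (Aim2, Ifi204 and Ifi203) and 5 nuclease genes of Aicardi-Goutieres syndrome (Trex1, Samhd1, Rnaseh2a, Rnaseh2b and Rnaseh2c), 10 of the 23336 gene symbols of the table. The members were chosen by name. Of the 10, 9 carry the symbol itself, and Mb21d1 is listed under its older name E330016A19Rik, which RefSeq gives as a synonym of the gene now called Cgas. After the filter on low counts, 9 of the 10 could be tested. Aim2 did not pass it, and is given as counts.

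The cells had received Cas9 for a short time together with either Adar sgRNA 1, a guide against Adar, or control sgRNA 5, a guide without a target, and had then been subcloned. They were given IFNb (interferon-beta) at 1000 U per mL, or the vehicle, buffered saline with albumin, for 36 h. This gives 4 groups of 3 libraries, vehicle and IFNb in control cells and the same in Adar-null cells. Every group, the controls included, went through Cas9 transfection and subcloning. Since 1 guide and its subclones stand for each genotype, effects of genotype and of subclone cannot be told apart. The labels do not say that the libraries of a group are separate cultures, so p-values measure the spread between these libraries only, which may be technical.

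As background, cGAS binds double-stranded DNA in the cytosol and makes the cyclic dinucleotide cGAMP, which activates STING on the endoplasmic reticulum. STING recruits the kinase TBK1, and the transcription factor IRF3 then turns on type I interferon genes. The AIM2-like receptors carry HIN domains that bind DNA, and many are themselves induced by interferon. Working against these sensors, TREX1 degrades DNA in the cytosol, SAMHD1 removes deoxynucleotide triphosphates, and RNase H2, an enzyme of 3 different subunits, cuts RNA that is paired with or built into DNA. Loss of these nucleases, or of ADAR, causes Aicardi-Goutieres syndrome, an inherited disease with spontaneous interferon production.

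Promoter sequences from RefSeq (GRCm38.p6) are shown for the AIM2-like genes, because the members Ifi203 and Ifi204 and several of their neighbours had no counts under vehicle and had counts under IFNb. A window of 250 bases before to 50 bases after the annotated start was searched for 7 of the 10 members. None was found for Ifi204 or Rnaseh2b. Tmem173 was left out of the search, so nothing is said here about its promoter. Both strands were searched for GAAA followed by any 2 bases and again GAAA, the core of the interferon-stimulated response element (ISRE), for TTCNNNGAA, the gamma-activated site, and for TTTNGCGC, an E2F site. The first pattern was present in 1131 of 32851 windows (3.44%), the second in 8.3% and the third in 1.38%. Each line gives the 80 bases just before the start, 5′ to 3′, with the match to the ISRE core in capitals. Lines are given only for windows with such a match, and not for all of those.
Ifi203, second window, chr1:173942493-173942572, minus strand: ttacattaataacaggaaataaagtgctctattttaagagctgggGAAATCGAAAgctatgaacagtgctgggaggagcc
Mndal, first window, chr1:173880188-173880267, minus strand: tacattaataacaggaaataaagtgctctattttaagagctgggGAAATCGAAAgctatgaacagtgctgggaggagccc
Ifi207, chr1:173741810-173741889, minus strand: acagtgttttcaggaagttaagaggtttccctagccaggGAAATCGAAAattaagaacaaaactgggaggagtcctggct
Ifi208, chr1:173673585-173673664, plus strand: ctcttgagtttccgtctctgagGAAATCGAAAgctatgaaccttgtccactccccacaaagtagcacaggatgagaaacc
Ifi211, chr1:173913047-173913126, minus strand: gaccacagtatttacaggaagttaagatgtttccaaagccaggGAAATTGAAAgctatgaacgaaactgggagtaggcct
Ifi213, chr1:173599273-173599352, minus strand: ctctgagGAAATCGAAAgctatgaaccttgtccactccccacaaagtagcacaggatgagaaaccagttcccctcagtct

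Of the 12 AIM2-like genes with a window, 9 held the ISRE core. The exact run GAAATCGAAA, which was looked up after these matches had been seen, was present in 7 of the 12, with its first base between -79 and -35 from the start. It was present in 16 of all 32851 windows (0.0487%), which belong to 16 of 27025 genes (0.0592%). The 7 AIM2-like genes are among these 16. These genes lie side by side on chromosome 1 and their windows resemble each other, so the matches are not independent. Ifi203, Mndal, Ifi207, Ifi208 and Ifi213 held the core and had counts with IFNb, and Ifi202b held none and had no counts. The other way, Ifi209 (Pyhin1) held no core and had 7.81 ± 2.65 CPM in Adar-null cells with IFNb. Ifi205 held 2 matches and had 3 and 4 counts in the IFNb groups. Aim2 held no core and had 3 counts in control and 13 in Adar-null cells with IFNb. Ifi206, Ifi211 and Ifi214 also held the core and are not set against counts here. Any relation between matches and levels was not tested. The first window of Ifi203 held none of the 3 patterns. Among the other members, the window of Samhd1 held TTCNNNGAA at -235 (TTCGGAGAA) and that of Rnaseh2a at 17 (TTCGCGGAA). None of the 3 patterns was found in the windows of Mb21d1, Aim2, Trex1 or Rnaseh2c, which says only that these letters are not in these windows.

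**Figure D1:**
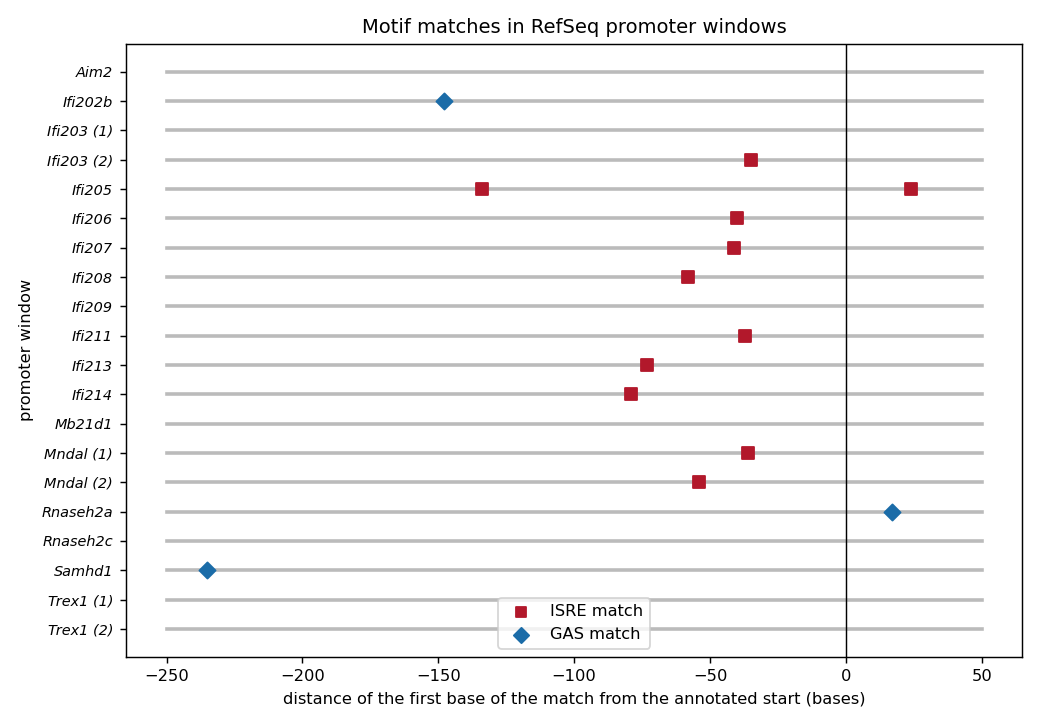
Motif matches in RefSeq promoter windows of members and other AIM2-like genes. Each grey line is a window from 250 bases before to 50 bases after an annotated start (numbers in brackets tell windows of one gene apart), red squares are matches to the ISRE core and blue diamonds matches to TTCNNNGAA, placed by their first base; the red squares of most AIM2-like genes lie within the 80 bases before the start.

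The libraries held 5375649 to 7153480 counts, of which the ribosomal RNA precursor Rn45s took 21.1% to 28.5%, and 11561 genes were tested. Libraries within a group differed from each other by more than sampling noise, with 1.47 to 3.23 as chi-square over degrees of freedom. Levels are given as CPM, the usual count scaled to library size, here after TMM, with the SD over 3 libraries, and a total of 3 counts over a group corresponds to 0.157 to 0.173 CPM. All 10 melanocyte markers (among them Mlana, Tyr and Pmel) had counts in every group, but Oca2, a melanosome membrane protein gene, had 1 count in all in Adar-null cells with IFNb. Oca2 was at 9.99 ± 0.63 CPM in control and 0.86 ± 0.16 CPM in Adar-null cells already with vehicle. Adar-null libraries with IFNb summed to 15349 to 16382 CPM over these markers, and the libraries of the other groups to 19024 to 20414 CPM. Of 16 leukocyte markers, 7 to 9 were at 0 in a group, with Cd3e, Ncr1 and Nkg7 among those at 0 in every group and a summed level of 3.07 to 6.82 CPM. Of 14 fibroblast, endothelial and epithelial markers, 8 were at 0 in 3 of the groups and 4 in Adar-null cells with IFNb, with Lum, Epcam, Krt14 and Krt18 at 0 throughout. They summed to 36.2 to 39.2 CPM in Adar-null libraries with IFNb, against 12.7 to 28.0 CPM elsewhere. The part of these shifts in the results below was not tested, and in such bulk samples fewer cells of a type and less RNA per cell cannot be told apart.

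Adar, the targeted gene, had, under vehicle, 72.2 ± 2.05 CPM in control cells against 59.5 ± 5.26 CPM in Adar-null cells (log2 fold change -0.28 ± 0.08 SE, edgeR adjusted p = 0.0017). With IFNb it had 384 ± 7.47 and 408 ± 21.2 CPM (0.09 ± 0.05, adjusted p = 0.0817). A small deletion at a Cas9 cut can leave the count of a gene's reads unchanged, so these values check the labels only weakly.

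Without interferon, the members did not pass the test between genotypes. Of the 9 tested members, 0 were called between Adar-null and control cells with vehicle (edgeR quasi-likelihood test, Benjamini-Hochberg adjusted p under 0.05), against 6.51% of all genes tested (2.47% higher, 4.05% lower), and DESeq2 and limma-voom also called 0. At an unadjusted p under 0.05 there were 2, Rnaseh2a (0.27 ± 0.11, adjusted p = 0.143) and Rnaseh2c (0.31 ± 0.13, adjusted p = 0.157). Without control vehicle replicate 3, Rnaseh2c was called (0.48, adjusted p = 0.0282). The groups did not overlap for Samhd1, lower in Adar-null cells, and Rnaseh2a, higher, which is 2 of 9 members against 22.3% of all genes tested. Ifi204 and Ifi203 had no counts in any vehicle library, so neither could be called or separate here. Both member counts therefore rest on the other tested members.

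Under IFNb, all 9 tested members differed between genotypes, 4 higher and 5 lower in Adar-null cells. The background was also large: 72.6% of all genes tested were called in this comparison, 36.4% higher and 36.2% lower. In this comparison the groups of libraries did not overlap for any tested member, against 74.0% of all genes tested without overlap. The median member difference was -0.66, against 0.02 over all genes tested. Ifi204, Ifi203, Trex1 and Samhd1 were higher, and Mb21d1, Tmem173 and the 3 RNase H2 subunit genes were lower. IFNb raised 6 of the 9 in control cells and lowered 0, where 53.0% of all genes tested were called (26.5% higher) and 57.6% showed no overlap between groups. In Adar-null cells IFNb raised 5 and lowered 3, against 72.3% called (36.6% higher, 35.7% lower) and 73.7% without overlap. Ifi204 and Ifi203 had no counts under vehicle and passed the filter through their IFNb libraries, so their rise was a condition of being tested. The response itself differed between genotypes by the interaction term for the 7 members with counts in every group, 2 more positive and 5 more negative in Adar-null cells, against 59.3% of all genes tested (28.6% and 30.7%).

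**Figure D2:**
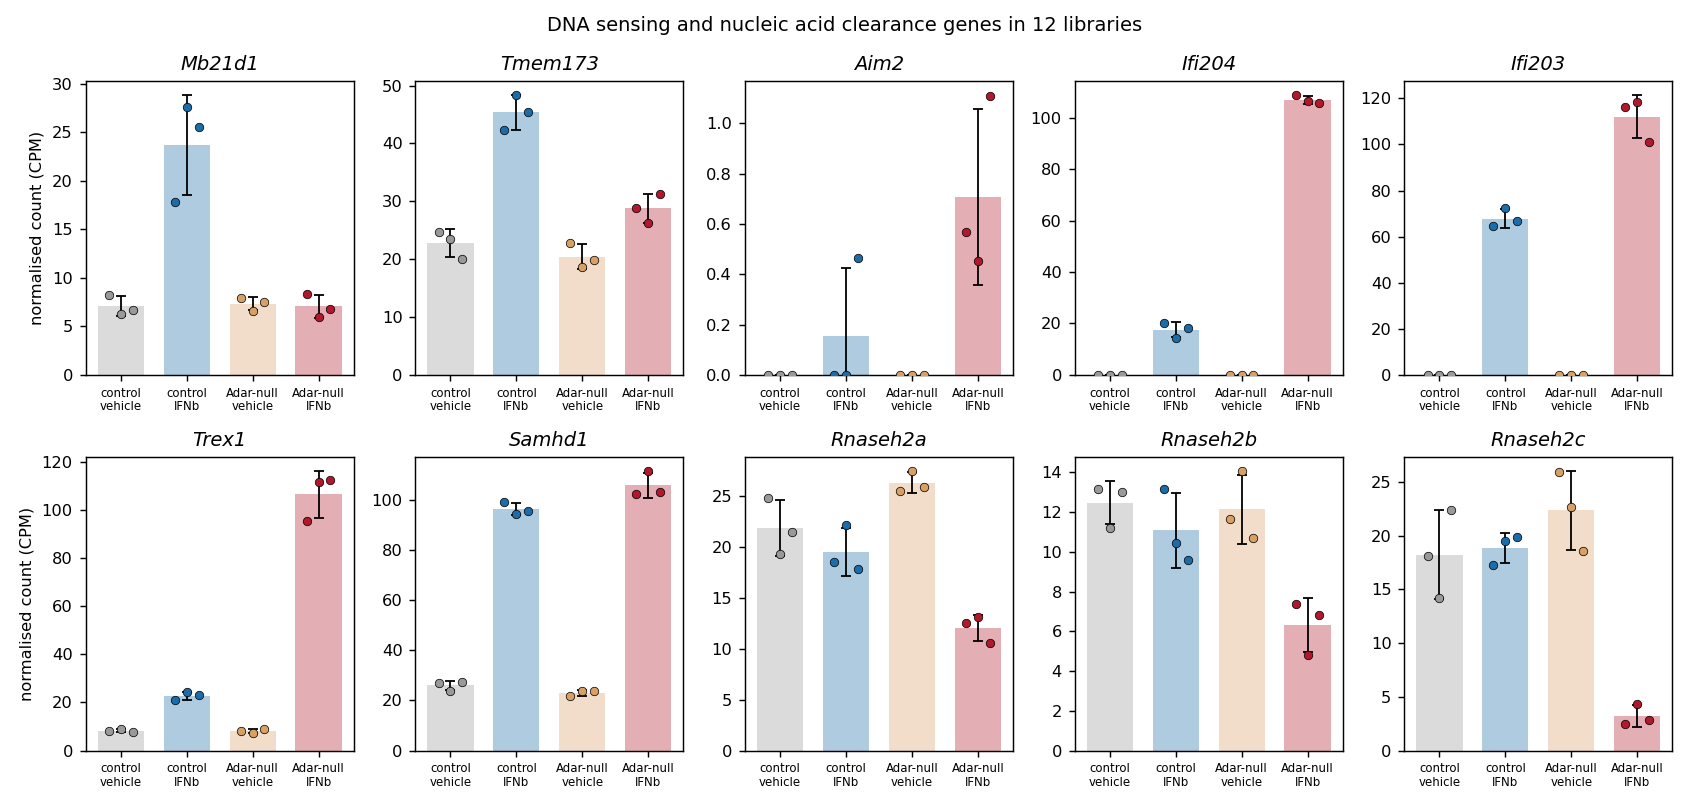
Level of each member in the 12 libraries, in CPM on linear axes that start at 0 and differ between panels. Bars are means of 3 libraries, error bars SDs and points single libraries; Trex1 and Ifi204 stand highest in Adar-null cells with IFNb, Mb21d1 in control cells with IFNb, and Rnaseh2c is lowest in Adar-null cells with IFNb.

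Mb21d1 encodes cGAS, the DNA sensor (listed as E330016A19Rik, GENCODE vM21 Cgas, GRCm38 chr9:78430526-78443237, minus strand). It stood at 8.26, 6.27 and 6.68 CPM in the control libraries with vehicle and at 17.8, 27.6 and 25.6 CPM in those with IFNb. In Adar-null cells it stood at 7.88, 6.63 and 7.49 CPM with vehicle and at 8.33, 6.01 and 6.80 CPM with IFNb. The control libraries with IFNb lay above all 9 others, and the other 3 groups overlapped. IFNb raised Mb21d1 3.38-fold in control cells (log2 1.76 ± 0.17, adjusted p = 6.65e-19). In Adar-null cells the difference was -0.06 ± 0.20 (adjusted p = 0.779), and the sign of this small value changed without Adar-null IFNb replicate 2. Under IFNb the level was 3.43-fold lower in Adar-null than in control cells (-1.78 ± 0.16, adjusted p = 6.66e-20). The responses differed by -1.82 ± 0.26 (adjusted p = 5.72e-10). The exons of a pseudogene, Gm8093, overlap 201 bases of Mb21d1 on the opposite strand.

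Tmem173 encodes STING, the adaptor that cGAMP activates (chr18:35733679-35740554, minus strand). The control libraries had 24.8, 23.4 and 20.05 CPM with vehicle and 42.4, 48.3 and 45.4 CPM with IFNb. The Adar-null libraries had 22.8, 18.6 and 19.8 CPM with vehicle and 28.8, 26.3 and 31.3 CPM with IFNb. Both IFNb groups lay above both vehicle groups, the vehicle groups overlapped, while under IFNb each Adar-null library stood below each control library. The rise was 1.00 ± 0.10 on the log2 scale in control cells (adjusted p = 2.41e-16) and 0.50 ± 0.11 in Adar-null cells (adjusted p = 2.23e-05). The level under IFNb was 1.58-fold lower in Adar-null cells (-0.66 ± 0.09, adjusted p = 3.89e-10), and the responses differed by -0.50 ± 0.15 (adjusted p = 0.00267).

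Ifi204, an AIM2-like receptor of the p200 family (chr1:173747293-173766943, minus strand), had 0 counts in all 6 vehicle libraries. With IFNb it had 20.1, 14.4 and 18.3 CPM in control cells and 109, 106 and 106 CPM in Adar-null cells. Every Adar-null library with IFNb lay above every control library with IFNb, and both groups lay above the vehicle libraries. Against the floor of 3 counts over a vehicle group, the level with IFNb was at least 102-fold higher in control cells and at least 667-fold higher in Adar-null cells. No p is given for this rise, since the gene passed the filter through its IFNb libraries. Under IFNb it was 6.12-fold higher in Adar-null cells (2.61 ± 0.10, adjusted p = 9.82e-52), the widest of the 4 upward differences between genotypes among tested members. With both vehicle groups at 0, the difference between responses could not be estimated for Ifi204 or Ifi203.

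Ifi203, a neighbouring AIM2-like gene (chr1:173920407-173942672, minus strand), also had 0 counts in the 6 vehicle libraries. Control libraries with IFNb had 64.4, 72.2 and 67.0 CPM, and Adar-null libraries with IFNb had 116, 118 and 101 CPM. The 2 groups did not overlap. The level with IFNb was at least 391-fold higher than the vehicle floor in control cells and at least 698-fold higher in Adar-null cells, again with no p for the rise. Under IFNb the level was 1.65-fold higher in Adar-null cells (0.72 ± 0.07, adjusted p = 3.09e-18).

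Aim2, the AIM2 inflammasome sensor (chr1:173350879-173466040, plus strand), was near the limit of detection. It had 0 counts in the 6 vehicle libraries, which allows up to 0.173 CPM in control and 0.161 CPM in Adar-null cells, for counting error only. The control libraries with IFNb held 0, 0 and 3 counts, and the Adar-null libraries with IFNb held 3, 3 and 7. The Adar-null libraries with IFNb had at least 4.42-fold more than the floor of their vehicle group. The ratio between genotypes under IFNb was 4.53 with an exact 95% counting interval of 1.24 to 24.8, and the 2 groups overlapped.

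Beyond these 3 members, 9 other AIM2-like genes are in the table, and all 9 had 0 counts in the vehicle libraries. Of the 9, 6 passed the filter, and did so through their IFNb libraries, so their values under IFNb are given with no test of the rise. AI607873 (RefSeq Ifi207) had 14.98 ± 2.33 CPM in control and 124 ± 13.9 CPM in Adar-null cells with IFNb. Its difference between genotypes was 8.27-fold (3.05 ± 0.11, adjusted p = 2.59e-43), and its level with IFNb was at least 86.4-fold the vehicle floor in control and at least 770-fold in Adar-null cells. Mndal had 21.4 ± 1.05 and 55.5 ± 1.63 CPM, at least 123-fold and at least 346-fold above that floor. Pydc3 (RefSeq Ifi208) had 5.65 ± 1.04 and 24.9 ± 4.79 CPM, at least 32.6-fold and at least 155-fold above it. Pydc4 (RefSeq Ifi213) had 1.03 ± 0.35 and 6.34 ± 1.09 CPM, from 5 to 10 and 31 to 48 counts per library. Pyhin1 (RefSeq Ifi209) had 6 counts in all in control cells with IFNb, and 7.81 ± 2.65 CPM when Adar-null cells received it. Pydc4 and Pyhin1 passed the filter only through the Adar-null libraries with IFNb, where they are high, so no test between genotypes is given for them. With 0 to 4 counts per library, the Pyhin1 control libraries with IFNb overlapped those with vehicle. Of the other 3, Ifi205 held 3 and 4 counts in the IFNb groups, and Ifi202b and BC094916 held none. Reads of these genes can be divided among near-identical copies, so single values are uncertain. Of the distinct 37-base stretches of Ifi204 exons, 37 bases being the read length, 28.7% also occur in other genes, 17.1% in Ifi211. Of those of Ifi203, 18.5% are shared, 13.4% with the pseudogene Ifi203-ps.

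**Figure D3:**
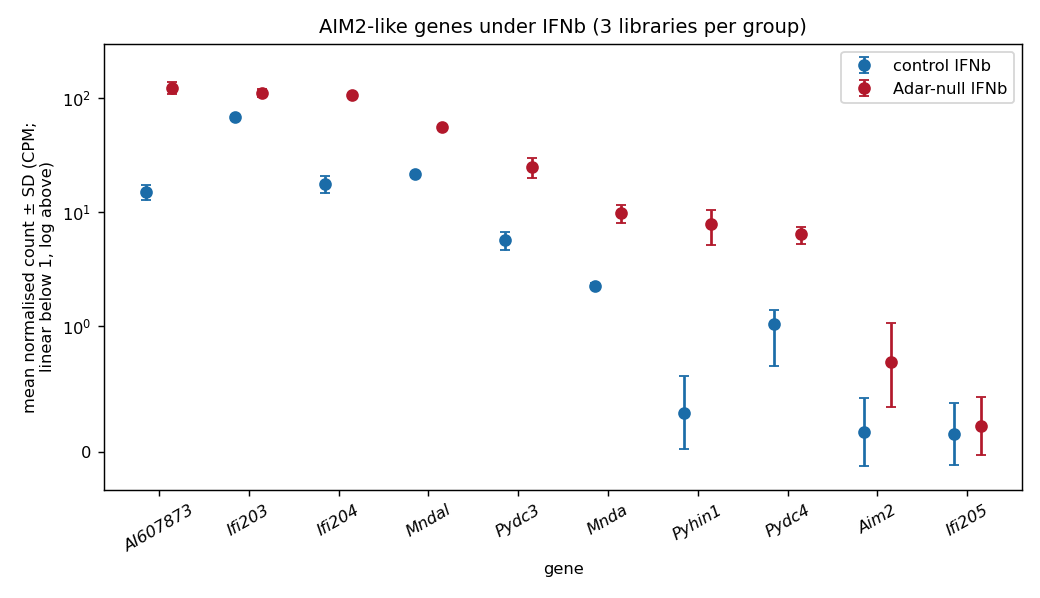
Mean level (± SD, 3 libraries) of AIM2-like genes under IFNb in control (blue) and Adar-null (red) cells, in CPM on an axis that is linear below 1 and logarithmic above. The vehicle libraries, all at 0, are not drawn. Each red point of the 8 tested genes lies above its blue one. Pydc4 and Pyhin1 passed the filter only through the Adar-null libraries with IFNb, so the filter favoured that order for them. Aim2 and Ifi205 rest on 13 counts or fewer per group.

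Trex1 encodes the main cytosolic DNA 3′ exonuclease (chr9:109057933-109059734, minus strand). Control libraries had 8.08, 8.91 and 7.58 CPM with vehicle and 20.8, 24.2 and 22.9 CPM with IFNb. Adar-null libraries had 8.22, 7.46 and 9.09 CPM with vehicle and 95.3, 112 and 112 CPM with IFNb. The vehicle groups overlapped, and every Adar-null library with IFNb exceeded every control library with IFNb. Trex1 rose 2.77-fold with IFNb in control cells (1.47 ± 0.15, adjusted p = 2.03e-17) and 13.02-fold in Adar-null cells (3.70 ± 0.13, adjusted p = 1.43e-62). Under IFNb it was 4.70-fold higher in Adar-null cells (2.23 ± 0.09, adjusted p = 9.36e-50), and the responses differed by 2.23 ± 0.20 (adjusted p = 8.30e-19). In GENCODE vM21, the whole 1147 bases of Trex1 exon sequence lie within exons of Atrip on the same strand. Atrip, which encodes a partner of the checkpoint kinase ATR, had 28.1 ± 2.55 CPM in control and 35.02 ± 5.05 CPM in Adar-null cells with IFNb (0.33 ± 0.10, adjusted p = 0.00265). How the authors' counting divided reads between them is not given in the sources used here, and the part of Atrip reads in the Trex1 values was not tested.

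Samhd1 encodes a deoxynucleotide triphosphohydrolase (chr2:157097533-157135265, minus strand). It had 26.9, 23.7 and 27.3 CPM in control libraries with vehicle and 99.0, 94.1 and 95.6 CPM with IFNb. It had 21.8, 23.6 and 23.7 CPM in Adar-null libraries with vehicle and 102, 112 and 103 CPM with IFNb. The IFNb groups lay far above the vehicle groups and close to each other. The rise was 3.71-fold in control cells (1.89 ± 0.09, adjusted p = 4.27e-45) and 4.59-fold in Adar-null cells (2.198 ± 0.086, adjusted p = 5.29e-52). The difference between genotypes under IFNb was 1.10-fold (0.14 ± 0.06, adjusted p = 0.0289), and that between responses 0.31 ± 0.12 (adjusted p = 0.0192). Both of these calls were lost under some alternatives. The first was lost with DESeq2 (adjusted p = 0.0738), with unscaled total counts (0.0618), without the filter on low counts (0.0555), and without control IFNb replicate 2 (0.159) or 3 (0.0695) or Adar-null IFNb replicate 2 (0.261). The second was lost in 5 of 12 fits that each left out 1 library, with adjusted p up to 0.0733. The calls of Samhd1 between genotypes therefore rest on the settings and libraries used, whereas its rise with IFNb did not change under these alternatives.

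Rnaseh2a encodes the catalytic subunit of RNase H2 (chr8:84956610-84969767, minus strand). Control libraries had 24.8, 19.3 and 21.5 CPM with vehicle and 18.5, 22.2 and 17.8 CPM with IFNb. Adar-null libraries had 25.5, 27.5 and 25.8 CPM with vehicle and 12.5, 13.1 and 10.6 CPM with IFNb. The Adar-null libraries with IFNb lay below all 9 others, and the control groups overlapped. Rnaseh2a fell 2.18-fold with IFNb in Adar-null cells (-1.13 ± 0.13, adjusted p = 4.00e-14), while in control cells the difference was -0.15 ± 0.12 (adjusted p = 0.277). The responses differed by -0.97 ± 0.18 (adjusted p = 7.35e-07), and under IFNb the level was 1.62-fold lower in Adar-null cells (-0.70 ± 0.14, adjusted p = 1.69e-06). Gm49661, annotated on the same strand, overlaps 339 bases (9.66%) of its exons, and its part in the counts was not tested. Prdx2, on the opposite strand, overlaps 177 bases and moved the same way, with 105 ± 4.20 CPM in control and 42.8 ± 2.51 CPM in Adar-null cells with IFNb. Whether the counting used strand is not given in the sources used here, and the part of Prdx2 reads was not tested.

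Rnaseh2b encodes an accessory subunit (chr14:62292589-62372992, plus strand). It had 13.2, 11.2 and 13 CPM in control libraries with vehicle and 13.2, 10.4 and 9.61 CPM with IFNb. It had 11.6, 14.1 and 10.7 CPM in Adar-null libraries with vehicle and 7.39, 4.81 and 6.80 CPM with IFNb. As for Rnaseh2a, the Adar-null libraries with IFNb lay below the other 9, which overlapped. The fall with IFNb in Adar-null cells was 1.96-fold (-0.97 ± 0.18, adjusted p = 6.54e-07), and the difference in control cells was -0.18 ± 0.16 (adjusted p = 0.347). The level under IFNb was 1.75-fold lower in Adar-null cells (-0.81 ± 0.18, adjusted p = 3.64e-05), and the responses differed by -0.79 ± 0.24 (adjusted p = 0.00282).

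Rnaseh2c encodes the other accessory subunit (chr19:5601873-5607019, plus strand). Control libraries had 18.1, 14.2 and 22.4 CPM with vehicle and 17.3, 19.4 and 19.8 CPM with IFNb. Adar-null libraries had 25.9, 22.6 and 18.5 CPM with vehicle and 2.46, 4.36 and 2.85 CPM with IFNb, from 13, 29 and 18 counts. The Adar-null libraries with IFNb again lay below the other 9, which overlapped. Rnaseh2c fell 6.79-fold with IFNb in Adar-null cells (-2.76 ± 0.22, adjusted p = 2.90e-25), and the difference in control cells was 0.06 ± 0.13 (adjusted p = 0.721), a small value whose sign turned with unscaled total counts. Under IFNb the level was 5.73-fold lower in Adar-null cells (-2.52 ± 0.22, adjusted p = 5.77e-22), and the responses differed by -2.82 ± 0.26 (adjusted p = 2.21e-19). Kat5, on the opposite strand, overlaps 426 bases (24.8%) of Rnaseh2c exons and moved the other way, from 23.6 ± 2.46 to 34.6 ± 2.67 CPM with IFNb in Adar-null cells (0.54 ± 0.10). The fall of Rnaseh2c was larger than those of Rnaseh2a and Rnaseh2b in these libraries, but the difference between subunits was not tested.

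**Figure D4:**
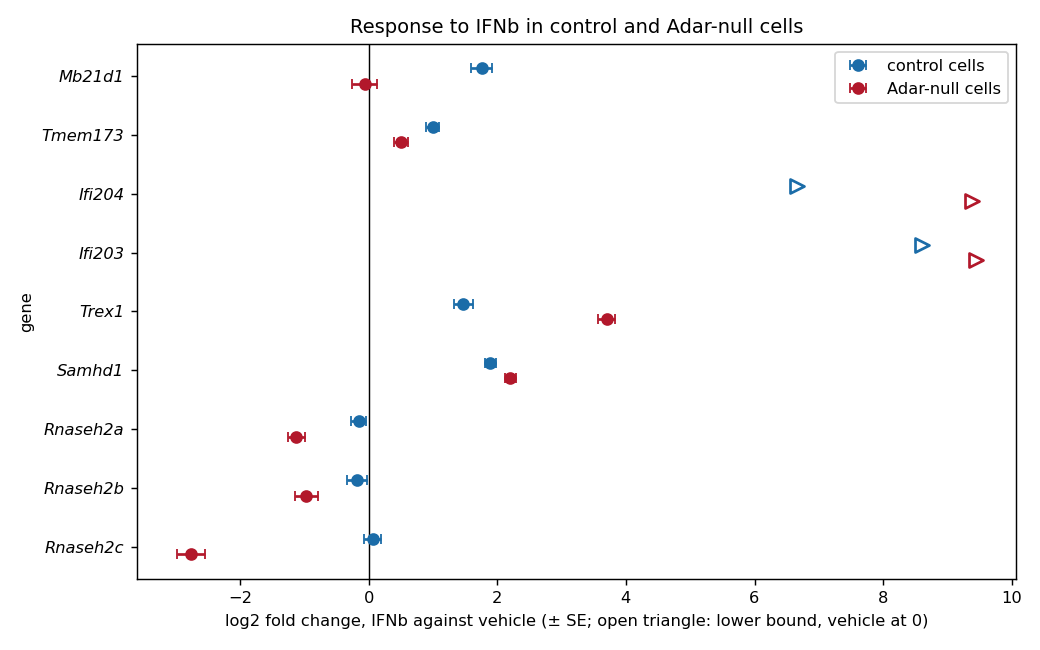
Response of the 9 tested members to IFNb as log2 fold change against vehicle (± SE) in control (blue) and Adar-null (red) cells. Open triangles are lower bounds, against 3 counts, where vehicle libraries were at 0; Mb21d1 passed the test in control cells and did not in Adar-null cells, Trex1 lies at 1.47 and 3.70, and the 3 RNase H2 genes lie near 0 in control cells and below 0 in Adar-null cells.

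Levels of different genes were compared per kilobase of exon. Exon lengths are those of GENCODE vM21, and the annotation used in the authors' counting is not given. Trex1 exons lie wholly within Atrip exons, and 28.7% of the 37-base stretches of Ifi204 occur in other genes. The places of these genes in the order are therefore uncertain. In control cells with vehicle the order was Rnaseh2c with 10.6 ± 2.39 CPM per kb, Tmem173 with 8.30 ± 0.89, Trex1 with 7.14 ± 0.58 and Rnaseh2a with 6.23 ± 0.79, of which no neighbours differed beyond their SDs. Samhd1 followed with 2.84 ± 0.21 CPM per kb, then Rnaseh2b with 1.997 ± 0.174 and Mb21d1 with 1.71 ± 0.25, the last pair within their SDs, and the 3 AIM2-like members were at 0. In control cells with IFNb, Trex1 (19.7 ± 1.47 CPM per kb) and Tmem173 (16.6 ± 1.09) led. Rnaseh2c (11.0 ± 0.81), Samhd1 (10.5 ± 0.27) and Ifi203 (10.1 ± 0.59) followed without separation, and so did Mb21d1 (5.73 ± 1.25), Rnaseh2a (5.56 ± 0.67) and Ifi204 (4.95 ± 0.81) after them. In Adar-null cells with IFNb, Trex1 had 92.8 ± 8.48 CPM per kb, Ifi204 had 30.05 ± 0.47 and Ifi203 had 16.7 ± 1.40, ahead of Samhd1 (11.6 ± 0.55) and Tmem173 (10.5 ± 0.92), which did not separate. Rnaseh2a had 3.44 ± 0.37 CPM per kb there. The lowest above Aim2 were Rnaseh2c (1.88 ± 0.59) and Mb21d1 (1.71 ± 0.29), within their SDs, and Rnaseh2b (1.01 ± 0.22).

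Of 35 other genes of cGAS and STING signalling in the table, 32 were tested, and calls fell in both directions. IFNb raised 17 and lowered 9 in control cells, where 26.5% of all genes tested were higher and 26.5% lower. Rises there were thus a larger share of the list than of all genes tested. It raised 12 and lowered 12 in Adar-null cells, against 36.6% and 35.7% of all genes tested, shares close to those of the list. The list's medians were 0.20 and -0.03. Among the rises with IFNb were Irf7, the interferon regulatory factor of the amplification loop (8.52 ± 0.59 in control cells), and Usp18, an inhibitor of interferon receptor signalling (7.97 ± 0.31 in control and 9.26 ± 0.30 in Adar-null cells). Zbp1, a sensor of Z-form nucleic acid, was at least 1003-fold above the vehicle floor in Adar-null cells, and Nlrc5, the transactivator of MHC class I genes, rose there by 7.92 ± 0.41. In control cells Zbp1 had 1 count in all under vehicle, and its ratio was 1950, with a counting interval of 350 to 77072. Irf7, Usp18, Zbp1 and Nlrc5 had few counts under vehicle, with Usp18 the highest at 1.34 ± 0.64 CPM in control cells. They passed the filter through their IFNb libraries, so their rises, included in the counts of raised genes, were a condition of being tested. Between genotypes under IFNb, 13 were higher and 13 lower, with a median of -0.01, against 36.4% and 36.2% of all genes tested. Trim56, a ubiquitin ligase linked to STING and cGAS, was higher (1.35 ± 0.07, adjusted p = 2.26e-38). Insig1 (-1.59 ± 0.07, adjusted p = 1.79e-45) and Rnf26 (-1.26 ± 0.12, adjusted p = 7.40e-18), both regulators of STING at the endoplasmic reticulum, were lower. With vehicle, 1 of the 32 was called, Insig1 (-0.27 ± 0.06, adjusted p = 0.00166), against 6.51% of all genes tested. The response differed for 18 of the 32, against 59.3% of all genes tested, more positive in 8 and more negative in 10, with Insig1 (-1.33 ± 0.09), Rnf26 (-1.30 ± 0.15) and Usp18 (1.29 ± 0.43) the widest.

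Of 31 other nucleases and clearance genes in the table, 24 were tested. In every comparison the share called, both directions together, was near or below that of all genes tested. In control cells IFNb raised 10 and lowered 0, so all calls there were rises. Of all genes tested 53.0% were called there, 26.5% higher and 26.5% lower. In Adar-null cells IFNb raised 10 and lowered 6, against 72.3% (36.6% higher, 35.7% lower). The medians were 0.16 and 0.15. Ifih1, the RNA sensor MDA5, rose by 5.34 ± 0.17 in control cells and by 6.56 ± 0.18 in Adar-null cells, and Isg20, an interferon-induced exonuclease, by 3.57 ± 0.25 and 6.26 ± 0.35. With vehicle, Isg20 had 2.12 ± 0.87 CPM in control and 0.98 ± 0.13 CPM in Adar-null cells. It passed the filter through its IFNb libraries, so its rise was a condition of being tested. Between genotypes under IFNb, 8 were higher and 9 lower in Adar-null cells, against 72.6% called over all genes tested, with a median of 0.07. The widest were Exo1, an exonuclease of mismatch repair and end resection (-4.33 ± 0.19, adjusted p = 2.95e-59), Eme1, a subunit of a structure-specific endonuclease (-3.51 ± 0.34, adjusted p = 4.82e-25), and Fen1, the flap endonuclease of Okazaki fragment processing (-2.30 ± 0.09, adjusted p = 5.91e-54). With vehicle, 2 were lower, Adar among them, and 0 were higher, against 6.51% called. The responses differed for 11 of the 24, against 59.3%, more positive in 6 and more negative in 5, with Exo1 (-4.47 ± 0.21), Eme1 (-3.69 ± 0.38) and Isg20 (2.70 ± 0.43) the widest.

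Genes for the supply of deoxynucleotides, whose triphosphates SAMHD1 removes, were mostly lower in Adar-null cells with IFNb. All 16 in the table were tested. In control cells IFNb raised 6 and lowered 2, against 53.0% of all genes tested called (26.5% higher, 26.5% lower), with a median of 0.03. In Adar-null cells it raised 3 and lowered 13, against 36.6% higher and 35.7% lower, with a median of -1.78 against 0.01 over all genes tested. Between genotypes under IFNb, 3 were higher and 13 lower, against 36.4% and 36.2% of all genes tested, with a median of -1.85 against 0.02 over all genes tested. Tk1, thymidine kinase, had 64.9 ± 2.74 CPM in control and 1.45 ± 0.58 CPM in Adar-null cells with IFNb (-5.49 ± 0.29, adjusted p = 2.32e-60). Rrm2, the S-phase subunit of ribonucleotide reductase, had 299 ± 3.49 and 10.2 ± 1.90 CPM (-4.87 ± 0.12, adjusted p = 1.51e-87). Tyms, thymidylate synthase, differed by -2.89 ± 0.23 (adjusted p = 7.52e-28). Rrm2b, the p53-inducible subunit, was lower in Adar-null cells with vehicle (-0.29 ± 0.10, adjusted p = 0.047), and IFNb lowered it in control cells (-0.64 ± 0.10, adjusted p = 2.39e-08). It rose with IFNb in Adar-null cells (0.78 ± 0.09, adjusted p = 9.26e-14), and under IFNb it was higher there than in control cells (1.13 ± 0.10, adjusted p = 2.26e-21). It was the only gene of the 16 called between genotypes with vehicle, a share close to the 6.51% of all genes tested. Tyms rose with IFNb in control cells (0.55 ± 0.14). The responses differed for 16 of the 16, against 59.3% of all genes tested, 3 more positive and 13 more negative, with Tk1 (-5.55 ± 0.30), Rrm2 (-4.88 ± 0.13) and Tyms (-3.26 ± 0.27) the widest.

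**Figure D5:**
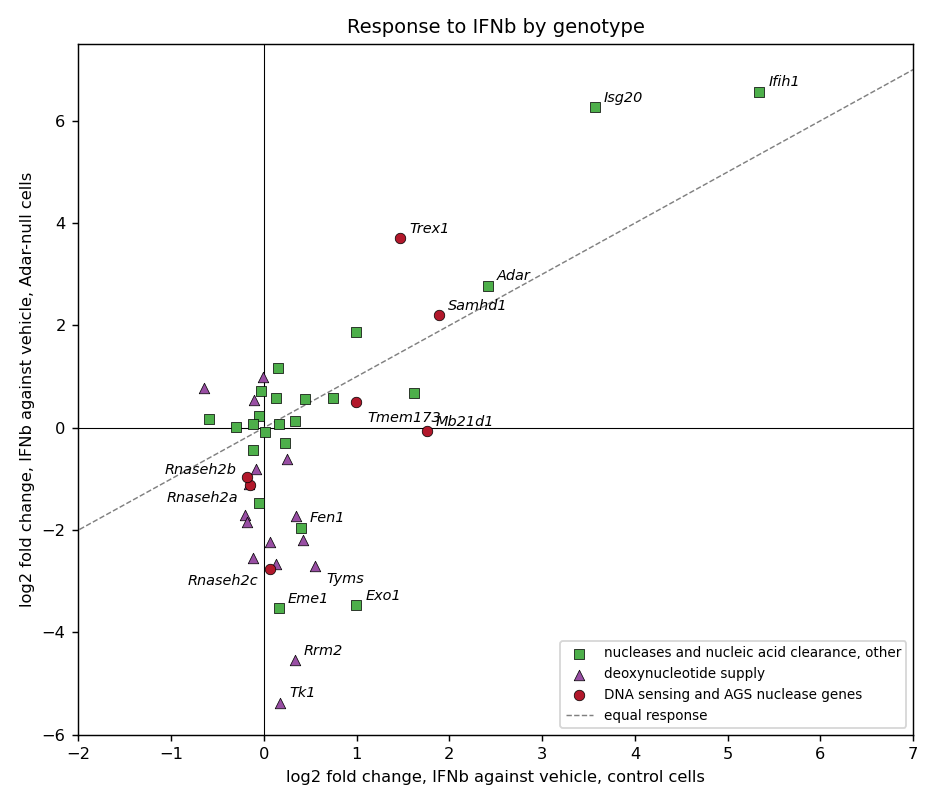
Response to IFNb (log2 fold change against vehicle) in control cells, horizontal axis, and Adar-null cells, vertical axis, for members (red circles), other nuclease and clearance genes (green squares) and deoxynucleotide supply genes (purple triangles) with counts in every group. The dashed line marks an equal response; Trex1 lies above it at 1.47 and 3.70, and Mb21d1, the RNase H2 genes, Tk1 and Rrm2 lie below it.

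The 3 tested genes whose profile was most like that of each member were taken by the smallest root mean square difference of log2 CPM, centred per gene, over the 12 libraries. For Mb21d1 these were Arhgap6 (0.24), Ankrd34a (0.26) and Cryab (0.27). For Tmem173 they were Bfsp2 (0.12), Gm6548 (0.12) and Plekha7 (0.13). For Ifi204 they were AI607873 (0.16), Gbp9 (0.28) and Cxcl10 (0.29), and for Ifi203 Trim30d (0.16), Oas1a (0.17) and Isg15 (0.23). For Trex1 they were 9130017N09Rik (0.21), Gm7609 (0.22) and Tnfrsf12a (0.28), and for Samhd1 Hap1 (0.11), C2 (0.16) and Tdrd7 (0.16). For Rnaseh2a they were Recql (0.11), Rttn (0.12) and Smarcd1 (0.13), and for Rnaseh2b Acsl3 (0.14), Tmem14c (0.15) and BC052040 (0.15). For Rnaseh2c they were Stil, Cep55 and Trip13, at 0.22 each. The nearest profile to Ifi204 was that of another AIM2-like gene, and the nearest to the 3 RNase H2 genes were 3 sets with no gene in common. These differences describe the same 12 libraries and carry no test.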

How the data were processed

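RNA was sequenced from 12 libraries of B16 cells, 3 in each of 4 groups taken from the titles. Ribosomal RNA was removed from total RNA and directional libraries were read from both ends at 37 bases, per the labels' protocols. HTSeq 0.6.1p1, Bowtie2 2.2.4, Trimmomatic 0.33, bcl2fastq 2.19.1 and DESeq2 were used with build mm10, per the submitters' processing notes. Their order and settings, and the strand and annotation used in counting, were not given in the sources. The authors deposited raw counts per gene symbol, which were not normalised. An interferon-gamma arm is not analysed here.

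From these counts, genes were filtered (filterByExpr by group), scaled by TMM and tested over all 12 libraries with edgeR 4.0.16 (glmQLFit robust, glmQLFTest; 1 coefficient per group) in R 4.3.3, with Benjamini-Hochberg adjustment over 11561 genes and calls under 0.05. The common biological coefficient of variation was 0.0397. Standard errors are Wald errors from the quasi-likelihood variance, not below counting error. Folds against a group at 0 use a floor of 3 counts over the group; with 1 to 3 counts an exact 95% counting interval is given. Floors and intervals cover counting error only. The script was tested on simulated data.

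Named genes were all members, Adar, and in each other list and comparison the 3 called genes with the largest change; others were chosen after their values were seen: neighbours overlapping a member, and any list gene added beside these. A few genes that this rule names are not reported here. Members and lists were chosen with earlier results of these data known. Exons and overlaps came from GENCODE vM21 (GRCm38), promoters from RefSeq (GRCm38.p6). Replicate numbers did not pair the libraries. Alternatives were RLE, upper-quartile and no scaling, Rn45s left out, other filters, DESeq2 1.42.0, limma-voom (limma 3.58.1), fits of only the groups compared, a replicate block, and each library left out.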

Additional observations from a re-analysis of the deposited data

Results flagged for a closer look

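The response to IFNb differed between Adar-null and control cells by the interaction term of the edgeR fit for 7 members. Of all genes tested 59.3% were called for this term, 28.6% more positive and 30.7% more negative in Adar-null cells. Values are log2, positive where the response was the greater in Adar-null cells. It was less in Adar-null cells for Mb21d1 (-1.82, adjusted p = 5.72e-10) and Tmem173 (-0.50, adjusted p = 0.00267). It was greater for Trex1 (2.23, adjusted p = 8.30e-19) and Samhd1 (0.31, adjusted p = 0.0192). It was more negative for Rnaseh2a (-0.97, adjusted p = 7.35e-07), Rnaseh2b (-0.79, adjusted p = 0.00282) and Rnaseh2c (-2.82, adjusted p = 2.21e-19). The DNA sensor, its adaptor and the RNase H2 genes lie on one side and Trex1 and Samhd1 on the other. The call of Samhd1 was lost when 1 of 5 libraries was left out.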

How the results depend on the processing

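Of the 30 member differences called (4 of them the rises of Ifi204 and Ifi203, which the filter decided), 642 of 653 values under the alternatives kept direction and call; the 11 exceptions were those of Samhd1, given beside its result. Members called per comparison stayed at 8 to 9 between genotypes under IFNb, 8 for IFNb in Adar-null cells, 6 for IFNb in control cells and 6 to 7 for the difference in response with each library left out, and at 0 to 1 between genotypes with vehicle, the 1 being Rnaseh2c without control vehicle replicate 3. All genes called with vehicle numbered 753, but 322 with DESeq2 and 308 to 801 with each library left out (308 without control vehicle replicate 2, 393 and 463 without Adar-null vehicle replicates 1 and 2). Values near 0 changed sign. For Trex1 between genotypes with vehicle, -0.00344 became 0.00397 with RLE, 0.00464 with upper-quartile scaling, 0.0034 without Rn45s, 0.000231 with a minimum count of 50, 0.00613 with DESeq2 and 7.27e-05 in a fit of only these groups, and ranged from -0.0734 to 0.0751 with each library left out. In the same comparison, leaving out libraries gave -0.153 to 0.0604 for Rnaseh2b and -0.038 to 0.171 for Mb21d1. IFNb in control cells gave Rnaseh2c -0.0131 with total counts and -0.0959 to 0.233 with each library left out, and IFNb in Adar-null cells gave Mb21d1 -0.195 to 0.0335. The cause was not tested. Of 18 same-numbered pairs of libraries, 0 had correlated deviations above 0.1 (-0.10 to 0.0618), and 0 libraries correlated best with their own number in every other group, although some did in single groups, so the numbers name libraries only; with the replicate block, 0, 9, 6, 8 and 7 members were called in the 5 comparisons, as without it. Counts per library limit Aim2 and the low values of Rnaseh2c.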

Other observations

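RNase H1, the single-subunit enzyme that also cuts RNA in RNA-DNA hybrids, moved the other way from the RNase H2 subunit genes. Rnaseh1, chosen after its values were seen, went from 13.8 ± 2.41 to 21.1 ± 1.59 CPM with IFNb in Adar-null cells (log2 0.59 ± 0.13, edgeR adjusted p = 4.08e-05), and in control cells the values were 11.2 ± 2.07 and 12.1 ± 1.53 CPM (0.13 ± 0.16, adjusted p = 0.508). The responses differed by 0.46 ± 0.20 (adjusted p = 0.0454).

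Downstream of STING, values chosen after they were seen were as follows. Tbk1, the kinase that STING recruits, rose with IFNb by 0.36 ± 0.10 in control (adjusted p = 0.00198) and 0.76 ± 0.10 in Adar-null cells (adjusted p = 7.49e-12). Ikbke, its related kinase, rose by 0.85 ± 0.12 (adjusted p = 3.23e-10) and 0.33 ± 0.12 (adjusted p = 0.00904). The responses differed by 0.40 ± 0.14 for Tbk1 (adjusted p = 0.012) and by -0.52 ± 0.17 for Ikbke (adjusted p = 0.00529). Irf3 rose by 0.30 ± 0.11 (adjusted p = 0.0183) and 0.48 ± 0.10 (adjusted p = 1.24e-05). Enpp1, which degrades extracellular cGAMP, fell with IFNb in control cells (-1.40 ± 0.36, adjusted p = 0.000269) and in Adar-null cells (-1.78 ± 0.38, adjusted p = 2.56e-06).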
